A study of Stylosanthes guianensis with 6 samples.

Results

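The cytochrome P450 genes described here are 31 unigenes (assembled transcript clusters that stand for genes) of stylo (Stylosanthes guianensis), a forage legume, measured by RNA-seq in leaves under a low and a toxic supply of manganese (Mn). They were selected on the contrast reported below. The list of unigenes that the study called as changed between the 2 Mn supplies in these same libraries, with DESeq2 limits of a 2-fold change and a q value under 0.05, was searched for protein descriptions naming a cytochrome P450 or CYP followed by a number. Of the 4094 unigenes in that list, the 1748 in the part used here gave 33 matches, out of 102864 unigenes in each table. The 2 other matches were cyclophilins, protein-folding enzymes whose names also begin with CYP, so the label does not hold for them and they are described apart. Of the 31, 16 were named as P450s by their best protein match and 15 only by their Pfam or eggNOG description. The Pfam description of a cytochrome P450 was carried by 30, and 19 were placed in 11 numbered CYP families. TRINITY_DN32208_c0_g1 and TRINITY_DN45384_c0_g7 were grouped by the name of their protein match instead. Their nucleotide matches carried a number, CYP76AD1-like and CYP86B1-like. Left out by the rule were 2 unigenes described as isoflavone hydroxylases and 3 of a triterpenoid process. Because the choice of members fixed that they differ between the groups, their values, fold changes and counts are a description with no test, and they support nothing about P450 genes in general.

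Seedlings of the genotype 'TF303' were grown for 30 d in nutrient solution and then for 10 d with MnSO4 at 5 μM (control) or at 400 μM (Mn toxicity), with no other difference in treatment. One label field writes these values in mM, while the study's protocol and methods write μM. Each group had 3 libraries, each from a hydroponic box of 4 seedlings. The tables hold RPKM (reads scaled to the length of the unigene and to the mapped reads of the library), so levels can be set side by side between unigenes of different length. In whole leaves, fewer cells of a type and less RNA per cell cannot be told apart.

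P450 enzymes are heme proteins, mostly held on the endoplasmic reticulum, that insert an oxygen atom into small molecules with electrons passed on by NADPH-P450 reductase or cytochrome b5. In plants they form one of the largest gene superfamilies. They act in the synthesis and breakdown of hormones, in the cuticle, in fatty acid signals and in specialised metabolites such as terpenoids and phenolics, and legumes use several families to decorate triterpenes.

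The libraries held 31.1 to 37.8 M mapped reads, recovered from the steps between RPKM values. A set of 40 unigenes with very uneven shares held 0.966 to 1.78% of the reads in the 3 controls and 1.62% in Mn toxicity replicate 2, but 23.6% in Mn toxicity replicate 1 and 38.6% in Mn toxicity replicate 3. No P450 unigene was among the 40. The summed RPKM of 4 chloroplast photosystem unigenes, the leaf markers used, was 53.8 to 101 in the controls, 66.5 in Mn toxicity replicate 2, 877 in replicate 1 and 1557 in replicate 3, and none of the 4 was at 0. The summed RPKM of 24 unigenes matching fungi, oomycetes, algae or protists was 17.0 to 44.4 in the controls and 11.9 to 26.3 under Mn toxicity. Of the 24, 2 were at 0 in all 3 Mn toxicity libraries and 11 in all 3 controls. Of the 24, 11 were tested, with positive log2 fold changes in 4 and negative in 7. An ammonium transporter match, TRINITY_DN44025_c2_g8, had 11.7, 9.89 and 10.8 in the controls and 3.99, 5.10 and 2.32 under Mn toxicity. In the other direction, the ubiquitin fusion match TRINITY_DN41834_c0_g6 had 1.18, 0.785 and 0.934 in the controls and 2.37, 2.54 and 2.25 under Mn toxicity. Both lists came from the study's list of changed unigenes, so differences of their members between the groups were fixed by the choice. Nothing about tissue or contamination is read from their sums. Reads taken up by a few unigenes lower the RPKM of all others, so fold changes of the deposited RPKM were set beside those obtained with median-of-ratios scaling, which divided by factors of 1.07 to 1.12 in the controls and of 0.977, 1.29 and 0.628 in Mn toxicity replicates 1, 2 and 3. The median log2 fold change of all 30913 unigenes tested was -0.20 as deposited and 0.01 after scaling, and each P450 value below can be read against that shift. Scaling moved the log2 fold changes of the P450 unigenes upward by 0.04 to 0.24, and scaled values are given below mainly where a call, an overlap or an order differed. The part of the uneven set in single P450 values was otherwise not tested.

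Of the 31 P450 unigenes, 23 had a higher and 8 a lower mean log2 level under Mn toxicity. Log2 fold changes, taken on log2(RPKM + 0.5), which understates changes of low unigenes, in the deposited values ran from -2.54 to 1.93 with a median of 0.86, and from -2.32 to 2.02 with a median of 1.03 after scaling. The mean RPKM of 28 of them reached 0.5, the minimum for the limma fit, and 3 did not. Under limits of an adjusted p below 0.05 and a 2-fold change, 7 rose and 5 fell as deposited, while 2.09% of all unigenes tested rose and 3.69% fell. After scaling 14 rose and 4 fell, against 4.43% and 3.71% of all tested. Nothing is read from these shares, since the members were chosen for this difference. The count as deposited also hung on single libraries. Leaving out any control or Mn toxicity replicate 1 left 2 calls. Leaving out Mn toxicity replicate 2 left 12, and leaving out Mn toxicity replicate 3 gave 18. Calls among all unigenes, 1787 with every library, moved as well. They fell to between 362 and 422 in the runs that left 2 P450 calls. In the run with 12 P450 calls they rose to 4942, and in the run with 18 to 2901. The shifts were thus not confined to the P450 unigenes.

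The ranges of the 2 groups did not overlap in 25 of the 31 P450 unigenes, with Mn toxicity above the controls in 17 and below in 8. Among the 28 tested these were 15 and 7, and the same held for 9.41% and 22.6% of all tested unigenes. After scaling the numbers were 20 and 8 of the 31, or 18 and 7 of the 28 tested, against 23.0% and 23.4% of all tested. With libraries scaled to the same sum of RPKM instead, they were 10 and 8 of the 31. The share of all tested unigenes was not computed for that scaling, so nothing is read from this count beyond its dependence on scaling. The study's own limits set which members are in, and its fold changes are not used here. On the ratio of mean RPKM as deposited, 6 members lay under a 2-fold change, the closest to no change being a CYP71 unigene at 1.77 times its control level, and after scaling none did. Among members with lower means, the closest was at 0.417 of its control level. Unigenes just outside the study's list carry no protein description in the material used and are not analysed here.

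**Figure D1:**
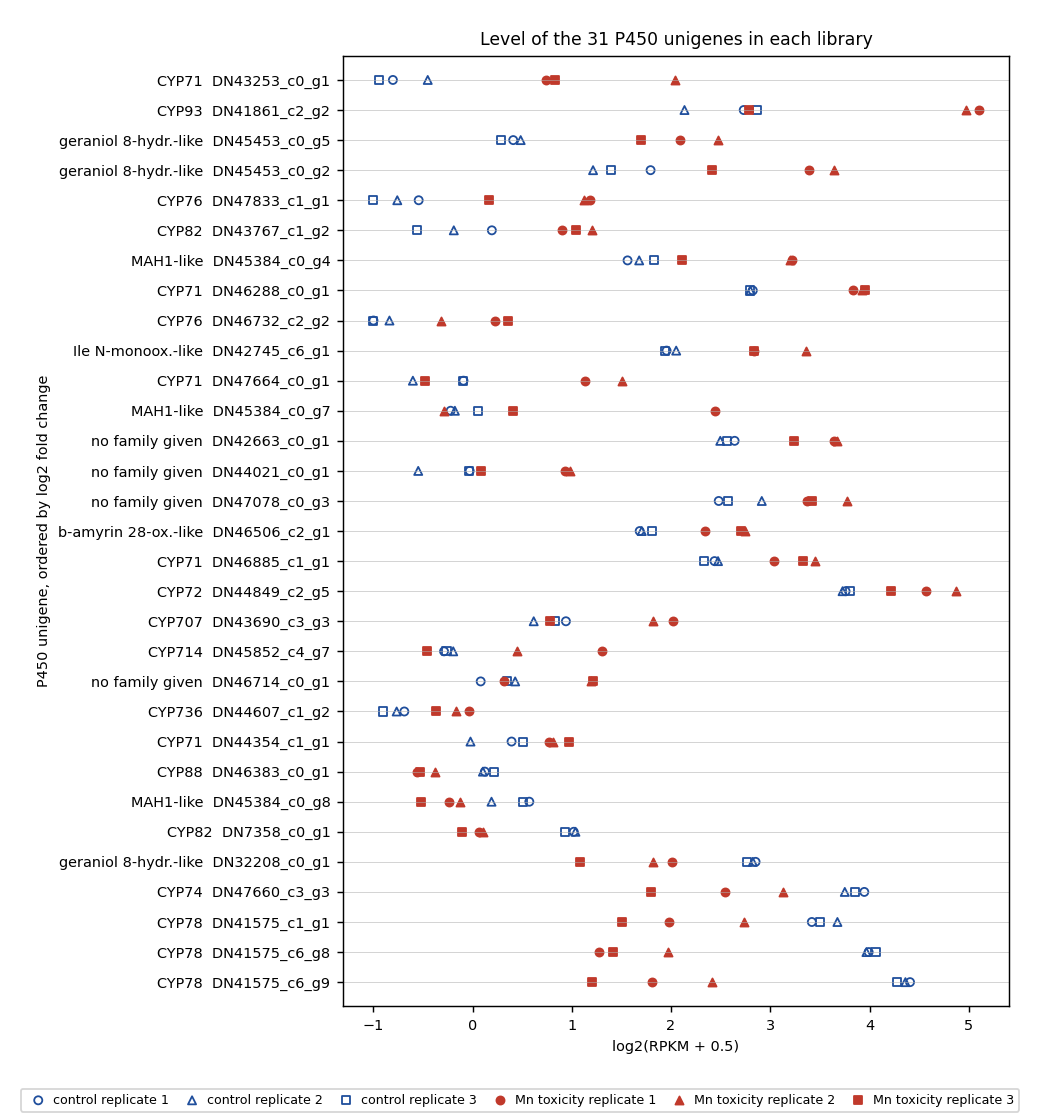
Level of each of the 31 P450 unigenes, as log2(RPKM + 0.5) on the x axis, with open blue symbols for the 3 control libraries and filled red symbols for the 3 Mn toxicity libraries. Unigenes are ordered by log2 fold change from highest at the top. The symbols of the 2 groups are apart in 25 rows and overlap in 6, and the 3 CYP78 unigenes stand at the foot with controls far to the right.

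The lowest fold changes, in the deposited values and after scaling, belonged to the CYP78 family, whose member CYP78A5 (KLUH) promotes the growth of leaves and floral organs in Arabidopsis. All 3 of its unigenes fell. The unigene TRINITY_DN41575_c6_g9, matched to a CYP78A5-like protein, had the highest control level of all 31, with an RPKM of 20.7, 20.1 and 18.9 in the controls and of 3.01, 4.83 and 1.80 under Mn toxicity, a log2 fold change of -2.54 (SE 0.31). TRINITY_DN41575_c6_g8 had 15.4, 15.2 and 16.2 against 1.91, 3.41 and 2.16, a log2 fold change of -2.46 (SE 0.27). TRINITY_DN41575_c1_g1, CYP78A5-like by its nucleotide match, had 10.2, 12.3 and 10.8 against 3.45, 6.16 and 2.35, a log2 fold change of -1.46 (SE 0.32).

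No Mn toxicity library reached the lowest control in any of the 3, and the family sum went from 46.6 ± 0.848 to 9.69 ± 4.21 RPKM (mean ± SD, n = 3). After scaling it was 42.4 ± 1.83 against 9.93 ± 1.30. These 3 unigenes come from 1 assembly component, and c6_g8 and c6_g9 were short, with fitted lengths of 762 and 1048 bp. They may be fragments of 1 transcript or near copies that share reads, so they are uncertain as separate genes. The ratio of c6_g8 to c6_g9 was 0.786 ± 0.0635 in the controls and 0.848 ± 0.308 under Mn toxicity, whereas the ratio of c1_g1 to c6_g9 was 0.559 ± 0.0618 and 1.24 ± 0.0839, so c1_g1 was lower than c6_g9 in each control and higher in each Mn toxicity library.

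Other unigenes matched enzymes of hormone breakdown. CYP707A enzymes inactivate abscisic acid by 8'-hydroxylation, and CYP714A1 acts on gibberellins in Arabidopsis. TRINITY_DN43690_c3_g3 is a CYP707A1 match by nucleotides only. It had an RPKM of 1.42, 1.03 and 1.28 in the controls and of 3.54, 3.04 and 1.22 under Mn toxicity, a log2 fold change of 0.74 (SE 0.37). The CYP714A1-like TRINITY_DN45852_c4_g7 had 0.319, 0.373 and 0.333 against 1.97, 0.860 and 0.229, a log2 fold change of 0.68 (SE 0.43). In both, Mn toxicity replicates 1 and 2 were above every control and replicate 3 was not, and neither passed the limits. After scaling the overlap ended in both, with replicate 3 of the CYP707A1 match at 1.94 against a highest control of 1.27, and that of the CYP714A1-like unigene at 0.365 against 0.349.

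P450s also act on fatty acids and waxes. MAH1 hydroxylates alkanes in the stem wax of Arabidopsis, and the CYP74 family cleaves or rearranges fatty acid hydroperoxides without needing a reductase. The CYP74C2 match TRINITY_DN47660_c3_g3, whose best nucleotide match is a hydroperoxide lyase of Lotus japonicus, fell from 14.9, 13.0 and 14.0 to 5.34, 8.24 and 2.98 RPKM, a log2 fold change of -1.36 (SE 0.33). Every Mn toxicity library was below every control, and the order was kept after scaling with a log2 fold change of -1.14.

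The 3 MAH1-like unigenes, all of the component TRINITY_DN45384_c0, did not move together. TRINITY_DN45384_c0_g4 had 2.45, 2.70 and 3.04 RPKM in the controls and 8.82, 8.70 and 3.83 under Mn toxicity, a log2 fold change of 1.16 (SE 0.34) that missed the adjusted p limit as deposited and passed both limits after scaling (1.37). TRINITY_DN45384_c0_g7, CYP86B1-like by its nucleotide match, had 0.357, 0.383 and 0.539 against 4.92, 0.321 and 0.821. Mn toxicity replicate 1 alone carried most of the log2 fold change of 0.97 (SE 0.59), and the groups overlapped. TRINITY_DN45384_c0_g8 had 0.986, 0.641 and 0.923 against 0.347, 0.415 and 0.199, a log2 fold change of -0.72 (SE 0.30), below every control in each Mn toxicity library. The ratio of c0_g4 to c0_g8 was 2.49 to 4.22 in the controls and 19.3 to 25.4 under Mn toxicity. How reads were divided between unigenes of 1 component was not tested, so the 3 are uncertain as separate genes.

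Several unigenes matched P450s of triterpene synthesis, in which beta-amyrin is oxidised on the way to saponins. The beta-amyrin 24-hydroxylase match CYP93E4 (TRINITY_DN41861_c2_g2) had a mean of 23.7 ± 15.0 RPKM under Mn toxicity against 5.61 ± 1.52 in the controls (mean ± SD, n = 3). Its libraries read 6.14, 3.89 and 6.79 in the controls and 33.8, 30.9 and 6.40 under Mn toxicity, so replicate 3 lay inside the control range. Its log2 fold change was 1.71 (SE 0.54), which missed the adjusted p limit as deposited. After scaling replicate 3 was at 10.2, above the highest control at 6.08, and the unigene passed at 1.94.

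The beta-amyrin 28-oxidase-like TRINITY_DN46506_c2_g1 went from 2.82 ± 0.154 to 5.59 ± 0.893 RPKM, a log2 fold change of 0.86 (SE 0.26) that reached 1.09 and passed after scaling. The match to CYP88D6, which oxidises beta-amyrin in licorice, TRINITY_DN46383_c0_g1, went from 0.609 ± 0.0481 to 0.213 ± 0.0490 and was too low for the fit. Its direction was thus opposite to that of the other triterpene matches, with every Mn toxicity library below every control. The unigenes that the study places under its triterpenoid process were left out by the rule.

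Matches to P450s of monoterpenoid synthesis were more mixed. Geraniol 8-hydroxylase and secologanin synthase act on the path to iridoid compounds in Catharanthus, and a match to either says nothing of the substrate in stylo. The secologanin synthase match TRINITY_DN44849_c2_g5, CYP72A219-like by nucleotides, had 13.0, 12.8 and 13.5 RPKM in the controls and 23.3, 28.8 and 18.1 under Mn toxicity, with a log2 fold change of 0.79 (SE 0.23). Its mean under Mn toxicity, 23.4 ± 5.35, was close to that of CYP93E4, and which of these 2 was highest of the 31 turned with scaling (25.0 against 22.9 for CYP93E4). Every Mn toxicity library was above every control, and the unigene passed the limits only after scaling, at 1.03.

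TRINITY_DN45453_c0_g5 and TRINITY_DN45453_c0_g2 are geraniol 8-hydroxylase-like by their nucleotide matches only, with hypothetical proteins as protein matches. TRINITY_DN45453_c0_g5 rose from 0.828, 0.899 and 0.720 to 3.76, 5.03 and 2.74 RPKM, a log2 fold change of 1.69 (SE 0.30). TRINITY_DN45453_c0_g2, of the same component, rose from 2.97, 1.82 and 2.12 to 9.96, 11.9 and 4.82, a log2 fold change of 1.68 (SE 0.35). The ratio of c0_g2 to c0_g5 was 2.85 ± 0.784 in the controls and 2.26 ± 0.454 under Mn toxicity, and the 2 may share reads. The third, TRINITY_DN32208_c0_g1, is geraniol 8-hydroxylase-like by protein and CYP76AD1-like by nucleotides, and which enzyme it stands for is uncertain. It fell from 6.72, 6.58 and 6.31 to 3.54, 3.03 and 1.61, a log2 fold change of -1.18 (SE 0.30). After scaling its log2 fold change was -0.96, short of the limit, with the groups still apart.

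The 2 CYP76E3 matches were almost silent in the controls. TRINITY_DN46732_c2_g2 had 0, 0.0591 and 0 RPKM in the controls, which stand for 2 reads in all, and 0.667, 0.303 and 0.784 under Mn toxicity, which stand for 60 reads. The ratio of reads at equal depth was 28.03, with an exact 95% counting interval of 7.43 to 237 that covers counting error only. TRINITY_DN47833_c1_g1 had 0.186, 0.0906 and 0 against 1.78, 1.67 and 0.623, or 3 reads against 45, a ratio of 14.0 (counting interval 4.50 to 70.5). Every Mn toxicity library was above every control in both. Both best nucleotide matches are geraniol 8-hydroxylase-like, and that of TRINITY_DN46732_c2_g2 is the same as for TRINITY_DN45453_c0_g2. The line between these 2 and the geraniol 8-hydroxylase-like group thus rests on names. The fitted length of TRINITY_DN47833_c1_g1 was only 298 bp. TRINITY_DN46732_c2_g2 was too low for the fit, while TRINITY_DN47833_c1_g1 rose.

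**Figure D2:**
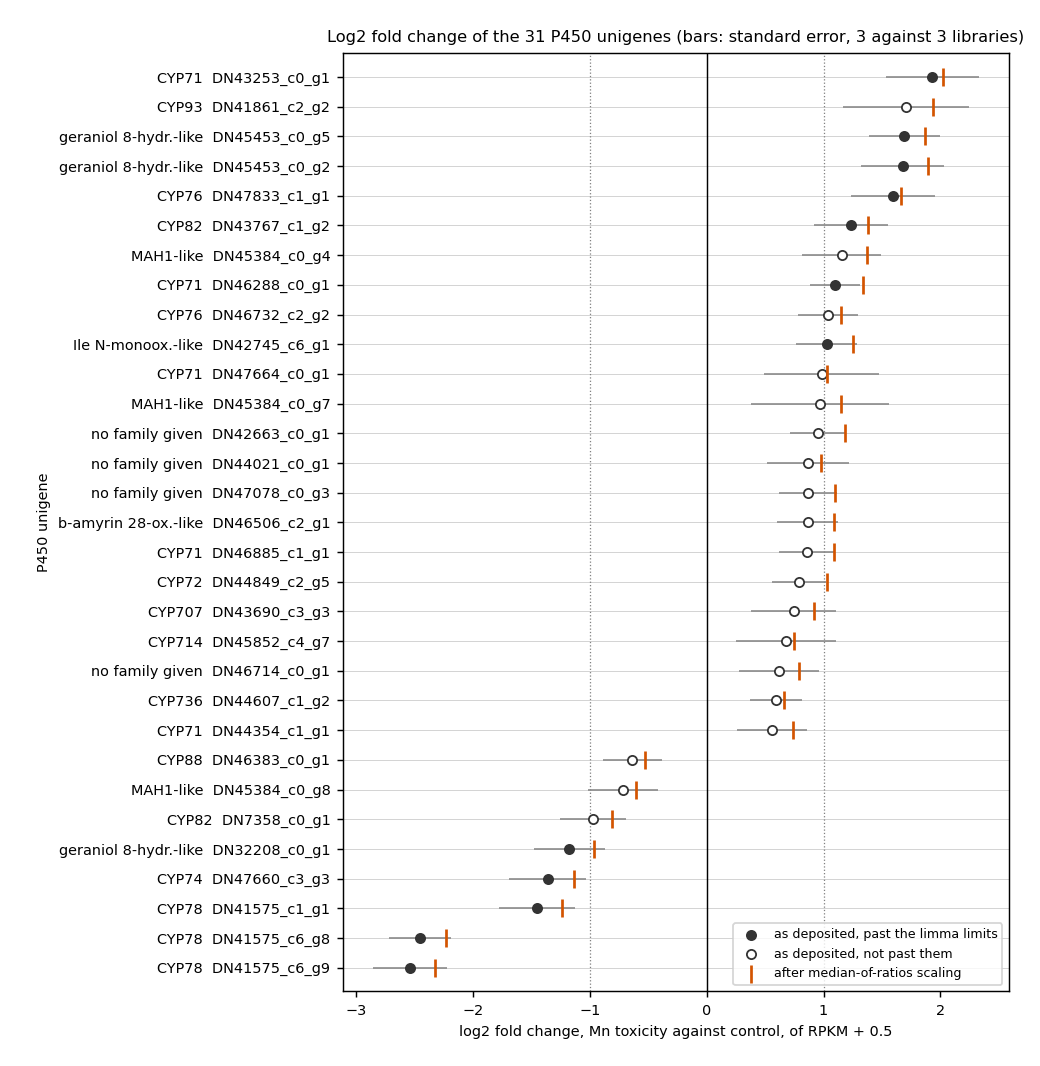
Log2 fold change of RPKM + 0.5, Mn toxicity against control, for each of the 31 P450 unigenes. Circles with bars give the value as deposited and its standard error from the fit across all unigenes, filled for the 12 past the limma limits and open for the rest, orange marks give the value after median-of-ratios scaling, and dotted lines stand at -1 and 1. Every orange mark lies to the right of its circle, and the CYP78 unigenes lie farthest to the left.

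The CYP71 family, the largest here, takes part in many kinds of specialised metabolism in plants. All 5 of its unigenes had higher means under Mn toxicity, and 2 of them rose. TRINITY_DN43253_c0_g1 had a log2 fold change of 1.93 (SE 0.40), from 0.0728, 0.231 and 0.0211 RPKM in the controls to 1.17, 3.60 and 1.27. This was the largest of the 31 as deposited, but not with a pseudocount of 1 (1.36 against 1.64 for CYP93E4) or without Mn toxicity replicate 3 (2.12 against 2.46). TRINITY_DN46288_c0_g1, CYP71A1-like, had 6.58, 6.46 and 6.42 against 13.8, 14.6 and 15.0, with a log2 fold change of 1.10 (SE 0.22). Its Mn toxicity libraries were even only as deposited, and read 14.1, 11.4 and 23.9 after scaling.

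The other 3 did not pass as deposited. The CYP71D8-like TRINITY_DN46885_c1_g1 had 4.92, 5.05 and 4.52 RPKM against 7.72, 10.4 and 9.55, and passed after scaling at 1.09. The CYP71A1-like TRINITY_DN44354_c1_g1 had 0.812, 0.485 and 0.923 against 1.21, 1.26 and 1.46, a log2 fold change of 0.56 (SE 0.30). The CYP71A1 match TRINITY_DN47664_c0_g1 had 0.438, 0.159 and 0.435 against 1.70, 2.34 and 0.216, a log2 fold change of 0.98 (SE 0.49). Its groups overlapped on both scales because Mn toxicity replicate 3 lay within the control range. The family sum was 12.5 ± 0.270 RPKM in the controls and 28.5 ± 3.44 under Mn toxicity.

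The 2 CYP82D47-like unigenes went opposite ways. TRINITY_DN43767_c1_g2 rose from 0.644, 0.376 and 0.179 to 1.37, 1.80 and 1.57 RPKM, a log2 fold change of 1.23 (SE 0.32). TRINITY_DN7358_c0_g1 had 1.53, 1.55 and 1.40 against 0.548, 0.572 and 0.426, a log2 fold change of -0.98 (SE 0.28) that missed the limits. The groups were apart in both. As deposited, the family sum, 1.89 ± 0.296 against 2.09 ± 0.245, differed by less than the SD of either group. After scaling the sum was 1.72 ± 0.275 in the controls and 2.32 ± 0.738 under Mn toxicity, a ratio of 1.35.

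Isoleucine N-monooxygenases open the path from isoleucine to cyanogenic glucosides in some legumes. The unigene with such a match, TRINITY_DN42745_c6_g1, rose from 3.45 ± 0.170 to 7.67 ± 1.82 RPKM, a log2 fold change of 1.03 (SE 0.26). TRINITY_DN44607_c1_g2, CYP736A12-like by its nucleotide match only, was low throughout, at 0.0811 ± 0.0431 against 0.380 ± 0.101, and was not in the fit.

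The 4 unigenes with no family given all had higher means under Mn toxicity. TRINITY_DN42663_c0_g1 had 5.74, 5.14 and 5.41 RPKM in the controls and 12.0, 12.3 and 8.97 under Mn toxicity, and TRINITY_DN47078_c0_g3 had 5.08, 7.04 and 5.45 against 9.82, 13.1 and 10.2. Neither passed as deposited (log2 fold changes of 0.95 and 0.86) and both passed after scaling (1.19 and 1.10). TRINITY_DN44021_c0_g1 had 0.479, 0.184 and 0.477 against 1.41, 1.47 and 0.558, with the lowest Mn toxicity library close above the highest control. TRINITY_DN46714_c0_g1 had 0.558, 0.846 and 0.773 against 0.741, 1.78 and 1.81, and here it was Mn toxicity replicate 1 that lay within the control range.

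Levels in the controls and direction differed between members, and both enter the sums. The 8 unigenes with lower means included 4 of the 5 with a control mean of at least 10 RPKM. Of the 23 with higher means, 12 had control means under 1. The choice of members and the direction groups both used the control values, so no link of level and direction is read from these counts. Among the 4 were the 3 CYP78 unigenes, of 1 assembly component and uncertain as separate genes, with a control sum of 46.6 RPKM. The count of 4 thus leans on that component. The 8 summed to 70.0 ± 0.983 RPKM in the controls and 19.0 ± 7.63 under Mn toxicity, and the 23 to 58.3 ± 1.62 and 143 ± 35.4 (mean ± SD, n = 3). Over all 31 the sums were 130, 126 and 128 in the controls and 173, 198 and 115 under Mn toxicity, so the groups overlapped and the mean was 1.26 times that of the controls. After scaling the sums were 115 to 118 and 153 to 183, a ratio of 1.47 with no overlap. With libraries scaled to the same sum of RPKM the ratio was 1.03, so the size of the difference in the total depended on the scaling. By mean share of the library's P450 sum, TRINITY_DN41575_c6_g9 went from rank 1 to rank 14 of the 31, TRINITY_DN44849_c2_g5 from rank 4 to rank 1, and CYP93E4 from rank 9 to rank 2. The last of these described no single library, since CYP93E4 ranked 1 in Mn toxicity replicates 1 and 2 (19.5% and 15.6% of the sum) and 7 in replicate 3 (5.58%). The direction groups were formed from the same values, so these sums are a description.

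**Figure D3:**
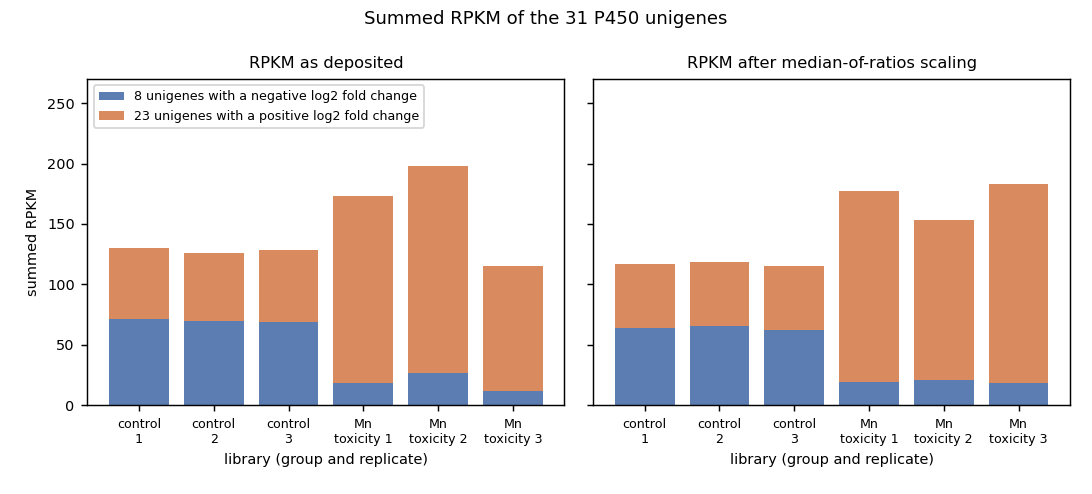
Summed RPKM of the 31 P450 unigenes in each library, as deposited on the left and after median-of-ratios scaling on the right, with the 8 unigenes of negative log2 fold change in blue and the 23 of positive log2 fold change in orange. As deposited the total of Mn toxicity replicate 3 (115) is below every control, and after scaling all 3 Mn toxicity totals are above the controls.

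Mn toxicity libraries varied more among themselves than controls did. The median coefficient of variation (SD as a percentage of the mean) of the 28 tested P450 unigenes was 10.9% in the controls and 38.3% under Mn toxicity, close to the 9.51% and 37.9% of all unigenes tested. Scaling brought the Mn toxicity values to 28.3% for the P450 unigenes and 22.7% for all. As deposited, replicate 3 was the lowest of the Mn toxicity libraries for 19 of the 31 P450 unigenes and for 82.4% of all tested. After scaling it was the lowest for 11 and the highest for 15 of the 31, against 38.3% and 42.0% of all.

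Both shares after scaling were near those of all unigenes, while the share as deposited was below that of all. Nothing about the P450 genes is read from any of them. As examples, chosen after their values were seen, CYP93E4 read after scaling 34.6, 24.0 and 10.2 in Mn toxicity replicates 1, 2 and 3, and the CYP714A1-like unigene 2.01, 0.667 and 0.365. The CYP71D8-like unigene read 7.91, 8.09 and 15.2, and the beta-amyrin 28-oxidase-like unigene 4.67, 4.80 and 9.57. The first pair was lowest and the second pair highest in replicate 3, the library with the largest share of reads on the uneven set.

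**Figure D4:**
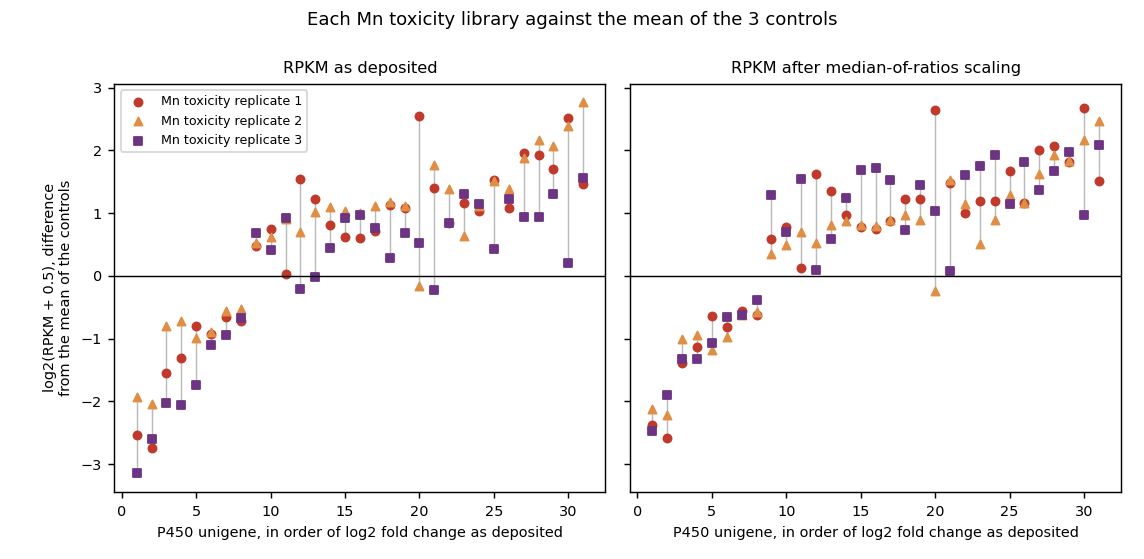
Difference of each Mn toxicity library from the mean of the 3 controls, in log2(RPKM + 0.5), for the 31 P450 unigenes in order of log2 fold change, as deposited on the left and after median-of-ratios scaling on the right, with a grey line joining the 3 libraries of a unigene. On the left the purple squares of replicate 3 are the lowest for 19 unigenes, and on the right for 11.

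The cyclophilins, peptidyl-prolyl isomerases that help proteins fold, both had higher means under Mn toxicity. The CYP19-3 match TRINITY_DN27187_c0_g1 had 8.79, 7.37 and 9.36 RPKM against 16.4, 19.9 and 13.6, with the groups apart. The CYP40-like TRINITY_DN45166_c0_g2 had 4.54, 4.21 and 4.19 against 9.24, 9.40 and 4.40, and Mn toxicity replicate 3 lay within the control range, though after scaling all 3 Mn toxicity libraries were above the highest control, 4.08. The log2 fold changes were 0.92 and 0.70 as deposited, and neither passed the limits. After scaling CYP19-3 passed at 1.16.

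Genes that work beside P450s were taken from the same list of changed unigenes. That they differ between the groups was thus fixed by the choice too, though their direction was not. One electron donor was found, a cytochrome b5 (TRINITY_DN44982_c0_g2), with a mean of 0.521 ± 0.110 RPKM in the controls and 1.31 ± 0.762 under Mn toxicity, which did not pass the limits. UDP-glycosyltransferases add sugars to the hydroxyl groups that P450s often create. Of 21 such unigenes, 18 were tested, 1 rose and 4 fell as deposited, and 10 rose and 4 fell after scaling, where the shares of all tested unigenes were 2.09% and 3.69%, then 4.43% and 3.71%. Their median log2 fold change was 0.87 as deposited and 1.08 after scaling, beside the -0.20 and 0.01 of all unigenes tested. TRINITY_DN46733_c1_g3 had the highest mean as deposited, with 14.0, 10.3 and 15.8 RPKM in the controls and 49.2, 42.1 and 11.1 under Mn toxicity, so that replicate 3 lay within the control range, and it did not pass. TRINITY_DN42167_c0_g3 fell from 3.55 ± 0.749 to 0.520 ± 0.450 RPKM (mean ± SD, n = 3).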

How the data were processed

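Leaf RNA was made into strand-specific libraries and sequenced by the authors as paired reads on an Illumina instrument. They assembled unigenes with Trinity 2.4.0, mapped reads with Bowtie2 2.2.3, counted them with RSEM (version not given in the sources used here) and deposited RPKM values for each library, with no genome used. Whether counting used strand is not stated. Here limma 3.58.1 (R 4.3.3) was fitted to log2(RPKM + 0.5) with an intensity trend over unigenes whose mean RPKM reached 0.5, with Benjamini-Hochberg adjustment, a two-sided test and limits of 0.05 and a log2 fold change of 1. The script was tested on simulated data with a single dispersion and the same expected composition in every library. That test therefore does not cover the uneven Mn toxicity libraries or unigenes of low level. Reads were recovered from the RPKM steps for depth and for counting intervals. Median-of-ratios factors were computed from the deposited RPKM. Boxes are the replicates, each with its own library, so p-values weigh a group difference against the spread between libraries. That spread, moderated by limma across unigenes, holds box and library effects together. Protein descriptions came from the study's supplementary list. Every member was described. Values in every library were given for families of 2 or more, the highest and lowest members and those with overlapping groups. Alternatives covered the pseudocount, the RPKM minimum, scaling, the trend, a replicate block and each library left out. Members and lists were chosen with earlier results of these data known.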

Additional observations from a re-analysis of the deposited data

How the results depend on the processing

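No log2 fold change of the 31 P450 unigenes changed sign under another scaling, another pseudocount or with any 1 library left out. Since the members were chosen for a change in these same libraries, this was close to fixed by the choice. The limma calls moved more. With libraries scaled to the same sum of RPKM, 1173 unigenes were called in all (283 higher and 890 lower) in place of 1787 (646 and 1141), and 6 P450 unigenes (2 and 4) in place of 12. The same scaling left 18 P450 unigenes with groups apart in place of 25, and a ratio of summed P450 RPKM of 1.03 in place of 1.26. Quantile normalization called 1263 higher and 1327 lower in all, with 13 and 5 P450 unigenes. Leaving out 1 library gave 362 to 4942 calls in all, highest without Mn toxicity replicate 2, and 2 to 18 P450 calls. With 1 library left out, 25 to 29 P450 unigenes had groups apart, and the ratio of summed P450 RPKM was 1.12 to 1.45. Shares of all tested unigenes with groups apart were not computed for these alternatives. Nothing about the P450 genes is therefore read from the counts of groups apart. After median-of-ratios scaling, leaving out 1 library, an alternative chosen after seeing the data, gave 1696 to 3399 calls in all and 14 to 19 of P450 unigenes. The causes of these shifts were not tested. Same-numbered libraries did not deviate together (correlations of 0.08, -0.15 and -0.08), so the numbers were not taken as pairs. A replicate block gave 2693 calls in place of 1787, and 13 P450 calls. Depth limits values under about 0.1 RPKM, near 3 reads per kilobase.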
